A study of Mus musculus with 5 samples.

Results

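The genes described are 10 of the 55450 listed in the deposited count tables: the cytokines Il6, Osm, Lif, Il11 and Cntf, the receptor chains Il6st, Il6ra, Osmr and Lifr, and the transcription factor Stat3. They were taken by symbol, and every one of the 10 symbols was found once. The data came from mice of the C57BL/6J strain, as single-cell 3′ RNA-seq of dissociated cortex. The injured libraries were from the injury site at 1, 3, 7 and 14 days after traumatic brain injury (TBI), and the remaining library was from sham mice. Each group was 1 library, no label gave the number or age of the mice behind it, and all cells had been freed with papain and passed through a Percoll gradient.

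The 10 genes belong to a single signalling system. IL-6, oncostatin M (OSM), LIF, IL-11 and CNTF all signal through gp130, the receptor chain encoded by Il6st, and each adds its own partner: IL-6 binds IL-6Rα (Il6ra), LIF binds LIFR, and OSM in mice signals mainly through OSMR. Receptor-bound JAK kinases then phosphorylate STAT3, which moves to the nucleus and switches on genes that include its own inhibitor Socs3. IL-6Rα also exists as a soluble protein that lets cells without their own Il6ra respond to IL-6. In the injured brain the system is known for its part in astrocyte reactivity and in inflammation.

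A level is given in CPM, the number of UMIs (unique molecular identifiers, counted RNA molecules) of a gene per 1000000 UMIs of a cell class in a library, with the exact Poisson 95% interval of the count in parentheses where one is given. With 1 library per group no test between conditions was possible, and all intervals cover counting error only, not the spread between mice. Intervals that do not overlap are therefore statements about these libraries. Levels are counted from 3′ ends and are compared within a gene, not between genes. In these sums, fewer transcribing cells and less RNA per cell cannot be told apart.

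The libraries held 11571 barcodes in sham and 12724, 9895, 14159 and 12225 at days 1, 3, 7 and 14. Median depth differed by over 10-fold, from 773 UMIs per barcode in sham, through 1756 at day 1, 3256 at day 3 and 6581 at day 7, to 8558 at day 14. After filtering, 55321 of 60574 barcodes were kept, and of 39 clusters 2 could not be named from the marker lists. Pairs of libraries shared between 27 and 59 cell barcodes. Microglia/macrophages numbered 4532, 4062, 3709, 6043 and 5661 cells in sham and at days 1, 3, 7 and 14, and astrocytes numbered 4262, 4654, 2210, 2538 and 317. Other classes are named where at least 50 cells of a library fell in them. Astrocyte markers summed to 33982 to 45764 CPM in astrocytes and to 202 to 1840 CPM in microglia/macrophages, and all 5 libraries kept that order. In sham, Aqp4, the water channel of astrocyte endfeet, stood at 1149 CPM in astrocytes and 35.5 CPM in microglia/macrophages, and P2ry12, a purinergic receptor of microglia, stood at 107 CPM in astrocytes and 2330 CPM in microglia/macrophages. Low counts of one class's markers were thus present in the other class, and a member's level in a class that may lack it is set against those markers.

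Different clusters held a class in different libraries. Of the 4654 day 1 astrocytes, 3286 (70.6%) came from a single cluster led by F3, Ptx3 and Hbegf that received its name only in a second naming step, while the sham astrocytes came mainly from clusters led by Slc6a11 and Agt and by Hes5 and Mfge8. Astrocytes of day 3 came mainly from a cluster led by Tagln, Igfbp2 and Mt2. Of the 2538 day 7 astrocytes, 1638 came from a cluster led by Sparcl1 and Aldoc, and 878 (34.6%) from a cluster led by Fabp7 and Kif5a that passed 4 astrocyte markers and whose cells had 0.088 of their library's median depth; its part in the day 7 values was not tested. Sham microglia came mainly from a pair of clusters that were both led by the heat shock genes Hspa1b and Hspa1a, and those of day 1 from a cluster led by Ccl12 and Msr1. Comparisons between libraries are therefore comparisons between these sets of clusters.

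In the mouse genome (GRCm38, GENCODE M21), Osm lies at chr11:4236420-4241026 and Lif at chr11:4257557-4272514, on the same strand, with 16530 bases between them. Stat3 lies on the same chromosome at chr11:100885098-100939540, beside Stat5a on the opposite strand. Osmr (chr15:6813577-6874969) and Lifr (chr15:7090614-7197489) are also neighbours, on opposite strands. The other members are Il6 at chr5:30013114-30019981, Il11 at chr7:4772373-4782859, Cntf at chr19:12763660-12765632, Il6st at chr13:112464070-112510086 and Il6ra at chr3:89864059-89913196.

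Lif, Il11, Osmr and Stat3 were the members with the largest astrocyte ratios at day 1, and their promoters are shown for that reason. Each runs from 250 bases before to 50 bases after a RefSeq transcription start (GRCm38.p6), 5′ to 3′ on the gene's strand. Capitals mark letters that match TGANTCA, the core read by AP-1 factors such as FOS and JUN, on either strand.
Lif, chr11:4257318-4257617, plus strand: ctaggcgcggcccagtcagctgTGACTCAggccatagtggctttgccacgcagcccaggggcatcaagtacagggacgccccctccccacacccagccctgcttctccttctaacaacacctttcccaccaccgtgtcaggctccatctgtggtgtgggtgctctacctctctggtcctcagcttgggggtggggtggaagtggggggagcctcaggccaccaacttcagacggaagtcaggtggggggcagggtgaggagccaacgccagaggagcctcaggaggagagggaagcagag
Il11, chr7:4782808-4783107, minus strand: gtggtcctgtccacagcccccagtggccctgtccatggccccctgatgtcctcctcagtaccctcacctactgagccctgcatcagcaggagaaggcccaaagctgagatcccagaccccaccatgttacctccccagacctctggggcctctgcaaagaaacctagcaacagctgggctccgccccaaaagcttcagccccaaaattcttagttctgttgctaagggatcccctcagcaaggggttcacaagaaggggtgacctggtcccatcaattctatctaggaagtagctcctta
Osmr, chr15:6874264-6874563, minus strand: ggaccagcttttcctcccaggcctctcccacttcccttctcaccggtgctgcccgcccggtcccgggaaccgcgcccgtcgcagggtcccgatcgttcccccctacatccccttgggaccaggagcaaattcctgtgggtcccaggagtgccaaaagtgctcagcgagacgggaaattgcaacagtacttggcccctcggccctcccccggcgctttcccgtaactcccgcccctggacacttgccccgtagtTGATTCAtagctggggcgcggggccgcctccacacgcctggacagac
Stat3, chr11:100939491-100939790, minus strand: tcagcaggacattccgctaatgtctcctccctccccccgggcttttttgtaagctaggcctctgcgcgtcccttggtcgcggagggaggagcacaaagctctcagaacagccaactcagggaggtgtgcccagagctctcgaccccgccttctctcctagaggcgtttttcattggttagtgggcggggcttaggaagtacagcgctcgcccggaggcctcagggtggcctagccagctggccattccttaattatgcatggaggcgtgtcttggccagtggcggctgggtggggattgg
The Lif window holds TGACTCA starting 228 bases before the start, and the Osmr window holds TGATTCA starting at base 3 after it. RefSeq promoters were found for 9 of the 10 members, and Il6 and Cntf also had a TGANTCA match, so 4 of 9 members had one. Of 32851 promoters of the same length in the table, 2565 (7.81%) held TGANTCA. The STAT core TTCNNNGAA, searched on both strands, was in 2726 promoters (8.30%) and in none of the 9 windows, which says only that these letters are not in those 300 bases. A match is a description of letters, not of binding.

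Lif, the leukaemia inhibitory factor gene, had 6 UMIs in the whole sham library and its highest level in astrocytes 1 day after injury. Its astrocyte level was 0.914 CPM (0.189–2.67; 3 UMIs) in sham, 379 CPM (366–393; 3183 UMIs) at day 1, 18.6 CPM (16.1–21.5) at day 3, 2.21 CPM (1.58–3.00) at day 7 and 1.69 CPM (0.460–4.32) at day 14. The high value is thus that of the day 1 library, and day 3 lay between it and the later times. Astrocytes held 3183 of the 3528 Lif UMIs of the day 1 library, or 90.2% (Clopper-Pearson 89.2–91.2%), while holding 35.4% of all its UMIs. The log2 ratio of day 1 over sham was 8.70 (exact conditional interval 7.15–10.98), wide because sham rests on 3 UMIs. Astrocytes of the F3-led cluster had 485 CPM of Lif, against 26.0 CPM in 1071 day 1 astrocytes that clustered with sham astrocytes; the clusters were formed from the same counts, so this is a description. With each cluster set against every other cell for naming, the F3-led cluster had no name, the ratio was 5.14, and astrocytes by that naming held 1.79% of day 1 Lif UMIs.

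Lif was also counted in other classes at day 1, at 24.1 CPM (20.8–27.7) in microglia/macrophages, 19.5 CPM in oligodendrocytes, 19.4 CPM in neural progenitors or neuroblasts and 64.9 CPM (34.6–111) in 91 choroid plexus epithelial cells. The microglia/macrophage level was 6.34% of the astrocyte level in that library, and the 18 astrocyte markers stood in microglia/macrophages at a median of 3.71% (2.43–6.04%) of theirs. The Lif value of microglia/macrophages therefore lay just above the range of those markers. In oligodendrocytes, neural progenitors or neuroblasts and choroid plexus epithelial cells, Lif stood at 5.13%, 5.12% and 17.1% of the astrocyte level. Each lay inside the astrocyte marker range of its class (2.06–14.1%, 2.44–56.0% and 0–45.8%), where the marker medians were 4.48%, 5.79% and 9.64%. These ranges are wide, and how much of the Lif in these classes is background was not tested. At day 3 Lif in microglia/macrophages was 45.5% of the astrocyte level, against a marker median of 1.96% (1.14–8.51%). Microglia/macrophages then had 8.48 CPM (7.13–10.0) against 0.806 CPM (0.166–2.36) in sham. By day 14 the library held 46 Lif UMIs, of which 27 (58.7%, 43.2–73.0%) were in T or NK cells at 2.10 CPM (1.38–3.05).

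Counted by cell, with each cell thinned to 500 UMIs so that depth did not differ, 0.0235% of sham astrocytes had a Lif UMI, and 13.4% (12.4–14.4%), 0.679%, 0.197% and 0.315% at days 1, 3, 7 and 14. In microglia/macrophages at day 1 the thinned share was 1.26% (0.936–1.65%), and how much of it is background was not tested. Before thinning, 28.6% of day 1 astrocytes (median 1591 UMIs per cell) and 0.0704% of sham astrocytes (median 688 UMIs) had a Lif UMI. The 10 richest cells held 4.17% of day 1 Lif UMIs, so the signal was spread over 1633 cells.

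Il11, a cytokine that signals through IL-11Rα and gp130, was also highest in astrocytes of day 1. It stood at 0.305 CPM (1 UMI) in sham, 65.3 CPM (60.0–71.0; 548 UMIs) at day 1, 1.16 CPM at day 3, 0.331 CPM at day 7 and 0.844 CPM at day 14. Astrocytes held 79.8% (76.6–82.7%) of its day 1 UMIs, and the log2 ratio of day 1 over sham was 7.74 (5.26–13.05). Its level in day 1 microglia/macrophages was 2.24% of that in astrocytes, under the marker range of 2.43–6.04%. The 91 choroid plexus epithelial cells of day 1 had 34.9 CPM (14.1–72.0), an interval that overlapped that of astrocytes. This was 53.5% of the astrocyte level, above the astrocyte marker range of 0–45.8% in those cells. A further 93 of the 687 day 1 UMIs were in 30 unnamed cells, 89 of them in 1 cell, and that cell's part in any class was not tested. At day 3 the Il11 UMIs were mainly in stromal and vascular cells: 69 fibroblasts held 52.5% of them at 26.3 CPM (17.8–37.3), and 69 endothelial cells had 30.3 CPM (13.1–59.7). At days 7 and 14 oligodendrocytes held 71.6% and 80.3% of them, at 2.82 CPM (2.11–3.68) and 2.54 CPM (1.90–3.32). Sham oligodendrocytes had 1.32 CPM (0.273–3.86), so the late oligodendrocyte levels overlapped sham, and the whole libraries held only 74 and 66 Il11 UMIs at days 7 and 14.

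Il6, the founding member of the family, was counted mainly in microglia and was not higher in them in any of the 4 injured libraries. Microglia had 20.8 CPM (16.4–26.0) in sham, 20.8 CPM (17.8–24.2) at day 1, 1.84 CPM (1.15–2.78) at day 3, 3.89 CPM (3.30–4.56) at day 7 and 1.39 CPM (1.00–1.88) at day 14. Sham and day 1 overlapped, and the 3 later libraries lay below both. In microglia/macrophages together the log2 ratios over sham were 0.00 at day 1 (interval -0.39 to 0.41), -3.52 at day 3 (-4.18 to -2.89), -2.74 at day 7 (-3.14 to -2.33) and -4.93 at day 14 (-5.48 to -4.39). Genes known to respond to tissue dissociation, immediate early and heat shock genes, were lower too: their 22-gene sum was 20.9, 11.1, 8.73, 6.65 and 5.14 UMIs per 500 in microglia/macrophages in sham and at days 1, 3, 7 and 14. Keeping only cells with 5 to 19 such UMIs per 500 was 1 of 10 alternatives. Under all 10 the Il6 log2 ratios lay between -3.67 and -3.08 at day 3, -2.85 and -2.34 at day 7 and -4.93 and -3.91 at day 14. Whole libraries held 83, 228, 57, 180 and 94 Il6 UMIs in sham and at days 1, 3, 7 and 14, and 25 of the 228 at day 1 were in a single unnamed cell. At day 14 dendritic cells had the highest level of the named classes, 7.03 CPM (4.84–9.87; 33 UMIs), and held 35.1% of Il6 UMIs in 4.47% of cells. Astrocytes had 0.914 CPM in sham and 3.22 CPM (2.12–4.68) at day 1, with 27 UMIs there.

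Osm, which encodes oncostatin M, was counted mainly in microglia, macrophages and neutrophils. Microglia/macrophages had 48.9 CPM (42.1–56.5) in sham, 205 CPM (195–215) at day 1, 139 CPM (133–144) at day 3, 56.5 CPM (54.5–58.6) at day 7 and 44.1 CPM (42.5–45.7) at day 14. Days 1 and 3 thus stood above sham, and days 7 and 14 overlapped it. The log2 ratios over sham were 2.07 (1.85–2.30) at day 1 and 1.5 (1.29–1.73) at day 3. For day 7 the ratio was 0.21 (-0.01 to 0.43), and for day 14 it was -0.15 (-0.37 to 0.07), or 0.56 with TMM scaling, a trimmed-mean correction for composition. Neutrophils had a higher Osm level than microglia at each time they could be read, with 395 CPM (298–513) at day 1, 233 CPM (192–280) at day 3, 232 CPM (173–306) at day 7 and 216 CPM (167–274) at day 14. Monocyte/macrophages had 387 CPM (282–520) at day 1, against 203 CPM (193–213) in microglia, and 98.2 CPM (92.2–104) at day 7, against 45.7 CPM (43.6–47.8) in microglia. At day 3 both stood at 139 CPM, and at day 14 at 46.4 CPM and 41.1 CPM.

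As a share of Osm UMIs, microglia/macrophages held 90.1%, 91.6%, 84.9%, 91.2% and 86.1% in sham and at days 1, 3, 7 and 14. Within them monocyte/macrophages held 22.9% of Osm UMIs at day 3, 32.7% at day 7 and 51.2% at day 14, and numbered 745, 664 and 2269 cells at those times. T or NK cells had 25.1, 12.5 and 16.7 CPM at days 3, 7 and 14, and dendritic cells 25.9 and 23.6 CPM at days 7 and 14. As a percent of the microglia/macrophage level, each of these lay inside the microglial marker range of its class. How much of them is background was not tested. Astrocytes had 3.35 to 5.01 CPM over the 5 libraries. Astrocyte Osm was 2.44% to 8.39% of the microglia/macrophage level, and within each library it lay inside the range that microglial markers showed there.

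**Figure D1:**
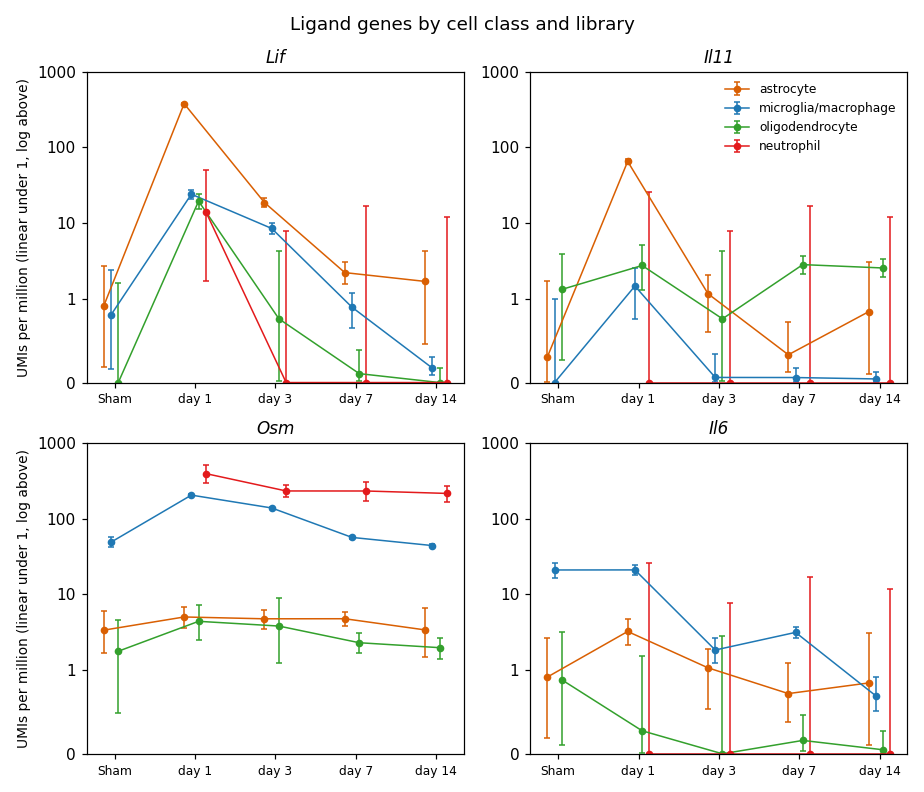
Levels of the cytokine genes by cell class in sham and at days 1, 3, 7 and 14 after TBI. The y axis is CPM of the class, linear under 1 and logarithmic above, each point is 1 class (astrocytes, microglia/macrophages, oligodendrocytes or neutrophils) in 1 library with at least 50 cells, and bars are exact Poisson 95% intervals. The astrocyte line for Lif peaks at 379 CPM at day 1, while the Osm lines of microglia/macrophages and neutrophils lie above the astrocyte line at every time they are drawn.

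Cntf, the ciliary neurotrophic factor gene, could not be read as a gene of its own. It had 0, 1, 8, 13 and 6 UMIs in sham and at days 1, 3, 7 and 14. Of its 1073 exonic bases 847 (78.9%) are shared with Zfp91 on the same strand, so reads there cannot be assigned to either gene with certainty. No level of Cntf is compared between classes for that reason.

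Il6st, the shared gp130 chain, was counted in most classes, with 45.1 to 144 CPM in microglia/macrophages and 47.0 to 108 CPM in astrocytes over the 5 libraries. Microglia/macrophages had 108 CPM (97.5–119) in sham, 144 CPM (136–153) at day 1, 45.1 CPM (41.9–48.5) at day 3, 92.1 CPM (89.4–94.8) at day 7 and 59.5 CPM (57.7–61.3) at day 14. Day 3 had the lowest level in microglia/macrophages, in oligodendrocytes (28.8 CPM) and in endothelial cells (37.9 CPM, 18.2–69.6), and astrocytes at day 3 had 47.0 CPM, against 58.8 CPM in sham. The day 7 value of microglia/macrophages was 0.23 below sham on the log2 scale but 0.18 above it with TMM scaling. In astrocytes the log2 ratios over sham were 0.47, -0.32, 0.44 and 0.88 at days 1, 3, 7 and 14, of which the day 3 value reversed to 0.19 in cells matched for dissociation genes.

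The joined class hid a difference in Il6st between its parts. Monocyte/macrophages had 20.1 CPM (16.2–24.8) at day 3, 34.1 CPM (30.7–37.9) at day 7 and 29.7 CPM (28.0–31.5) at day 14. Microglia had 54.4 CPM (50.3–58.7), 107 CPM (104–110) and 98.3 CPM (94.8–102) at the same times, so the log2 ratio of monocyte/macrophages over microglia was -1.43, -1.65 and -1.73. Microglia alone at day 14 were therefore close to their sham level of 108 CPM (97.7–119). Vascular and stromal cells were among the higher carriers: 106 pericytes or smooth muscle cells had 189 CPM (143–246) at day 7, endothelial cells had 128 CPM (118–138) there, and fibroblasts had 114 CPM (95.9–135) at day 3. T or NK cells, neural progenitors or neuroblasts and plasma cells had 10.5 to 29.8 CPM.

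Il6ra, the IL-6-binding chain, was carried mainly by microglia and other myeloid cells, and was lower in microglia/macrophages of all 4 injured libraries. Microglia had 262 CPM (246–279) in sham, 83.7 CPM (77.5–90.3) at day 1, 142 CPM (136–149) at day 3, 164 CPM (160–168) at day 7 and 120 CPM (116–124) at day 14. Each injured library lay below sham without overlap, and day 1 was the lowest. In microglia/macrophages the log2 ratios over sham were -1.65, -1.11, -0.85 and -1.63 at days 1, 3, 7 and 14, with counting intervals that ran from -1.79 to -0.75 in all, and they stayed negative under all 10 alternatives, with values between -1.74 and -0.45. An Il6ra UMI was found in 12% (11.1–13%) of microglia/macrophages in sham after thinning to 500 UMIs, and in 4.83%, 5.66%, 7.25% and 5.05% at days 1, 3, 7 and 14. Before thinning these shares were 18.7%, 14.7%, 37.6%, 60.4% and 58.0%, highest in the 3 deepest libraries, with medians per cell of 728, 1788, 3614, 7209 and 10463 UMIs. The unthinned order goes against the CPM and is not read as a change.

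Monocyte/macrophages had less Il6ra than microglia, at 65.1, 74.9 and 58.0 CPM at days 3, 7 and 14, which is a log2 ratio of -1.13, -1.13 and -1.05. Neutrophils had 134 CPM (80.7–209), 115 CPM (86.9–150), 155 CPM (107–217) and 87.0 CPM (57.3–127) at days 1, 3, 7 and 14. Endothelial cells had 44.7 CPM in sham, from 4 UMIs, and 60.8, 87.1, 65.2 and 60.1 CPM at the 4 later times, all within the sham interval of 12.2–115. In order, these were 17.0%, 72.7%, 71.6%, 44.8% and 70.6% of the microglia/macrophage level. Microglial marker medians in endothelial cells were 13.6%, 4.52%, 7.74%, 4.99% and 47.8%, and each Il6ra percentage lay inside the marker range. How much of the endothelial Il6ra is background was not tested. Astrocytes had 11.9 CPM (8.45–16.2) in sham, 25.4 CPM (22.1–29.0) at day 1, 15 CPM (12.7–17.5) at day 3, 12.6 CPM (11–14.3) at day 7 and 25.7 CPM (19.7–33.1) at day 14. In sham the astrocyte level was 4.53% of that in microglia/macrophages, beside a microglial marker median of 4.43% (4.0–26.3%), whereas at day 1 it was 30.4%, beside 2.13% (1.42–41.7%). Within day 1 astrocytes the F3-led cluster had 29.8 CPM of Il6ra from 192 UMIs with 10.9 CPM of P2ry12, and the second largest cluster had no Il6ra UMI. The astrocyte ratio of day 1 over sham, 1.10 on the log2 scale, turned negative in 4 of 9 alternatives, so no direction is drawn for it.

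Osmr, the signalling partner chain for OSM, was held mainly by astrocytes, and was higher in astrocytes of all 4 injured libraries. Its astrocyte level was 4.27 CPM (2.33–7.16; 14 UMIs) in sham, 242 CPM (232–253) at day 1, 180 CPM (172–188) at day 3, 36.9 CPM (34.1–39.8) at day 7 and 66.2 CPM (56.3–77.4) at day 14. All 4 injured libraries stood above sham without overlap, with days 1 and 3 highest. The log2 ratios over sham were 5.83 (5.08–6.70), 5.40 (4.65–6.27), 3.11 (2.35–3.99) and 3.96 (3.17–4.86) at days 1, 3, 7 and 14. They stayed positive under every alternative that gave a value, and the day 1 ratio was lowest, at 3.55, when the F3-led cluster went unnamed. Astrocytes held 93.4% of Osmr UMIs at day 1, 89.6% at day 3, 58.0% at day 7 and 56.7% at day 14.

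In microglia/macrophages Osmr stood at 7.69, 2.44, 0.897 and 0.144 CPM at days 1, 3, 7 and 14, which was 3.18%, 1.36%, 2.43% and 0.22% of the astrocyte level. Each of these percentages lay within the range of the 18 astrocyte markers in the same cells. How much of the Osmr in microglia/macrophages is background was not tested. In sham they had 0.537 CPM, from 2 UMIs. Endothelial cells held the next largest share, with 80.0 CPM (72.1–88.5) at day 7 and 67.5 CPM (53.7–83.8) at day 14, which was 32.4% and 29.6% of Osmr UMIs then. At day 7 endothelial Osmr stood above the astrocyte level, and at day 14 the intervals of the classes overlapped. Pericytes or smooth muscle cells had 115 CPM (79.7–161) at day 7, fibroblasts 49.1 CPM (37.3–63.5) at day 3 and oligodendrocyte precursors 19.7 CPM (14.4–26.3) at day 3. Thinned to 500 UMIs, 0.188% of sham astrocytes had an Osmr UMI, and 9.50% (8.67–10.4%), 7.74%, 0.985% and 2.52% at days 1, 3, 7 and 14, against 0.369% of day 1 microglia/macrophages. Both Il6st and Osmr were counted in 0% of sham astrocytes and in 0.258%, 0.271%, 0.0394% and 0% at days 1, 3, 7 and 14 after thinning, where a count of 0, taken as up to 3 cells, allows shares of up to 0.0704% in sham and 0.946% at day 14. Before thinning those shares were 0%, 5.37%, 9.91%, 9.57% and 14.8% at median depths of 688, 1591, 3664, 5606 and 4013 UMIs per cell, and no order of the libraries is read from them.

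Lifr, the LIF receptor chain, was lower in astrocytes and higher in microglia at days 1 and 3, although the astrocyte direction turned in some alternatives. Astrocytes had 75.3 CPM (66.2–85.3) in sham, 42.2 CPM (37.9–46.8) at day 1, 50.6 CPM (46.4–55.2) at day 3, 38.4 CPM (35.6–41.4) at day 7 and 36.3 CPM (29.0–44.8) at day 14. As whole classes every injured library lay below sham, although the day 1 ratio of -0.83 (-1.07 to -0.59) turned to 0.17 with each cluster set against every other cell for naming, and the day 3 ratio of -0.57 turned to 0.23 in cells matched for dissociation genes. Microglia had 48.1 CPM (41.3–55.7) in sham, 95.3 CPM (88.7–102) at day 1, 88.8 CPM (83.5–94.3) at day 3, 25.9 CPM (24.4–27.6) at day 7 and 30.8 CPM (28.8–32.8) at day 14. Days 1 and 3 thus lay above sham in microglia and days 7 and 14 below it. For microglia/macrophages the log2 ratios were 0.99, 0.56, -1.07 and -1.15, with the same signs under all 10 alternatives. Oligodendrocytes had 40.5, 44.1, 26.6, 44.2 and 56.0 CPM in sham and at days 1, 3, 7 and 14, and endothelial cells reached 74.0 CPM (66.4–82.2) at day 7.

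**Figure D2:**
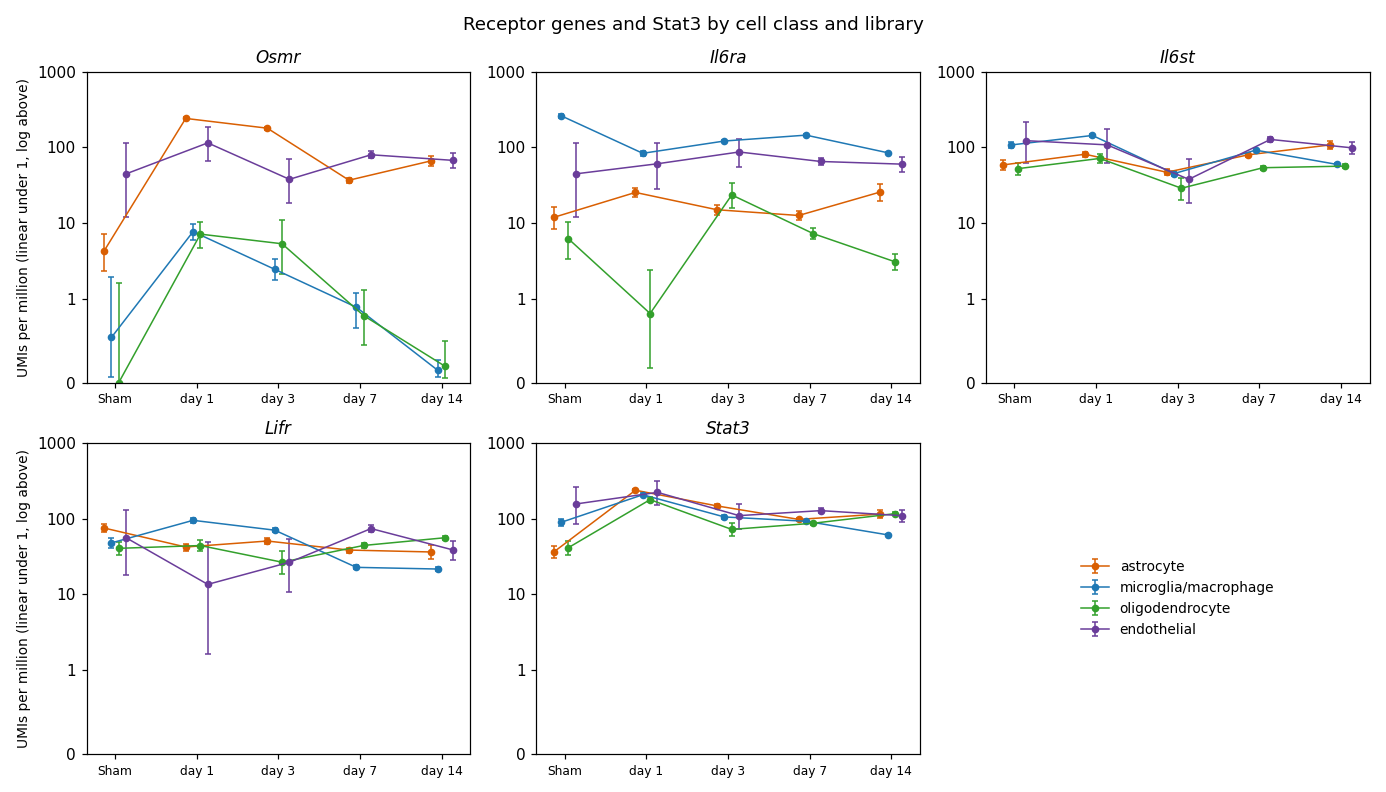
Levels of the receptor chains and Stat3 by cell class in sham and at days 1, 3, 7 and 14 after TBI. The y axis is CPM of the class, linear under 1 and logarithmic above, with exact Poisson 95% intervals, for astrocytes, microglia/macrophages, oligodendrocytes and endothelial cells. Astrocyte Osmr stands at 242 CPM at day 1 against 4.27 CPM in sham, and Il6ra in microglia/macrophages lies below its sham level of 263 CPM at each injured time.

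**Figure D3:**
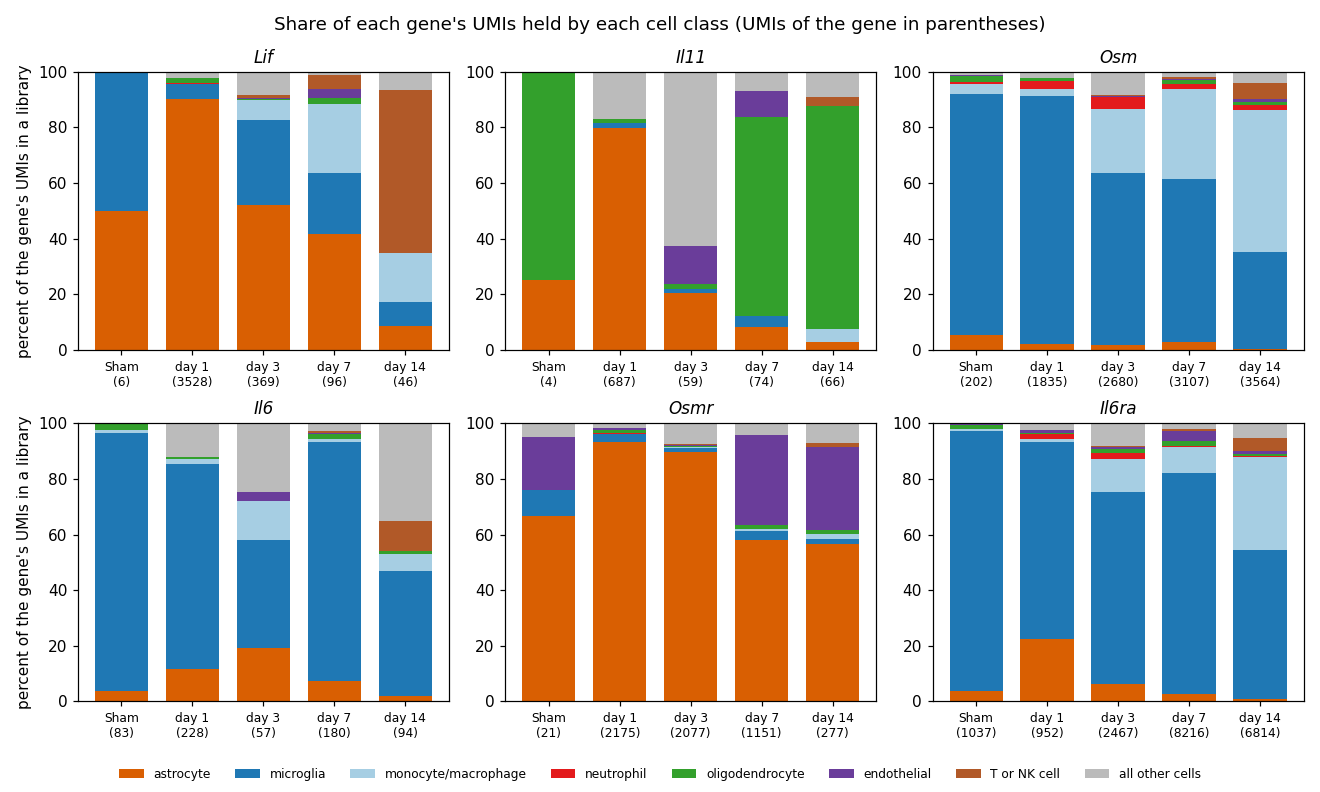
Percent of each gene's UMIs in a library that each cell class held, in sham and at days 1, 3, 7 and 14, with the gene's UMIs in parentheses under each bar. Astrocytes hold 90.2% of Lif and 93.4% of Osmr at day 1, and microglia and monocyte/macrophages, drawn as separate parts, together hold 91.6% of Osm.

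Set side by side at day 1, ligand and receptor genes were divided between the classes. Osm stood at 5.01 CPM in astrocytes and 205 CPM in microglia/macrophages, a log2 ratio of astrocytes over microglia/macrophages of -5.36 (-5.83 to -4.92). Osmr stood at 242 CPM in astrocytes and 7.69 CPM in microglia/macrophages, a log2 ratio of 4.98 (4.61–5.36). Lif had its ratio in the same direction as Osmr, 3.98 (3.77–4.19), while Lifr was 42.2 CPM in astrocytes and 95.1 CPM in microglia/macrophages, with a ratio of -1.17 (-1.36 to -0.99). In sham astrocytes had 75.3 CPM of Lifr and microglia/macrophages 47.8 CPM. The low day 1 astrocyte level of Lifr was that of the F3-led cluster, at 29.2 CPM, while the 1071 day 1 astrocytes that clustered with sham astrocytes had 117 CPM. Il6 and Il6ra were both lower in astrocytes than in microglia/macrophages, at log2 ratios of -2.71 and -1.72.

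**Figure D4:**
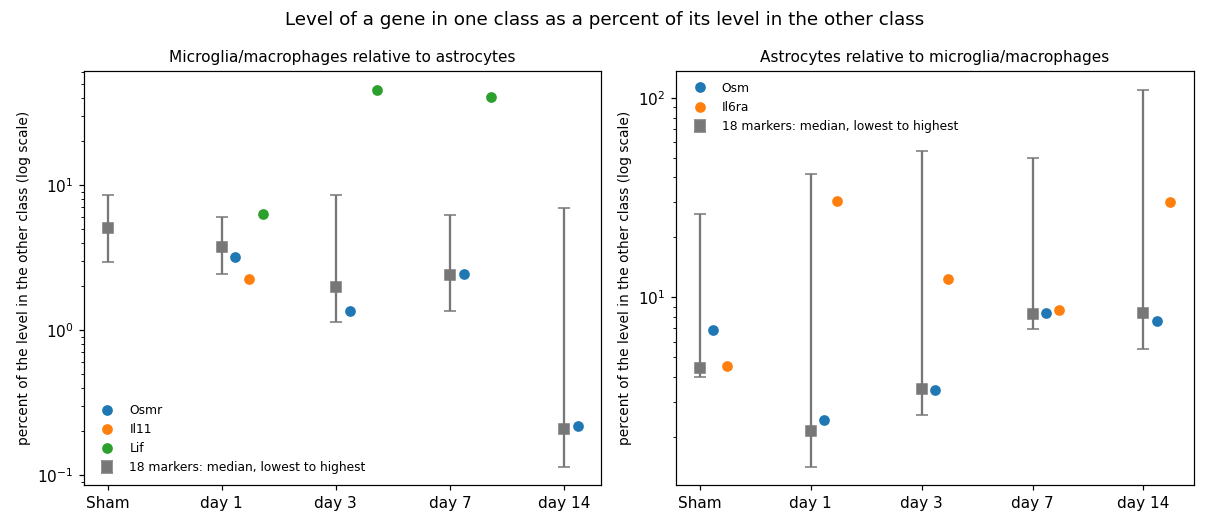
Level of a gene in one class as a percent of its level in the other, by library, on a log scale: microglia/macrophages relative to astrocytes for Lif, Il11 and Osmr, and astrocytes relative to microglia/macrophages for Osm and Il6ra. Grey squares with bars are the median and range of the 18 markers of the class set as 100%. Osmr and Osm lie inside the marker range, while Lif at day 3 (45.5%) lies above its range of 1.14–8.51%.

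Stat3, the transcription factor downstream of gp130, had higher levels in astrocytes and oligodendrocytes of all 4 injured libraries. Astrocytes had 36.3 CPM (30.0–43.4) in sham, 238 CPM (228–249) at day 1, 148 CPM (140–155) at day 3, 97.9 CPM (93.4–103) at day 7 and 115 CPM (102–130) at day 14. No injured library overlapped sham, and day 1 was the highest. The log2 ratios over sham were 2.71 (2.45–2.99), 2.02 (1.75–2.31), 1.43 (1.16–1.71) and 1.67 (1.35–1.99), positive under all alternatives, the lowest being 1.86 at day 1, 1.47 at day 3, 0.90 at day 7 and 1.21 at day 14. Oligodendrocytes had 41.4 CPM (33.5–50.7) in sham, 179 CPM (165–193) at day 1, 72.1 CPM (58.3–88.2) at day 3, 87.1 CPM (83.0–91.4) at day 7 and 117 CPM (112–121) at day 14. Their log2 ratios were 2.11, 0.80, 1.07 and 1.49, again with no overlap with sham. Microglia/macrophages had 89.5 CPM in sham, and 207, 105, 92.5 and 61.1 CPM at days 1, 3, 7 and 14. Their day 1 log2 ratio over sham lay between 1.06 and 1.31 under all 10 alternatives, so a higher day 1 level was not particular to astrocytes and oligodendrocytes. At day 1 the log2 ratio of astrocytes over microglia/macrophages was 0.20 (0.10–0.29). Among classes of at least 50 cells, neutrophils had the highest Stat3 level at day 3, 203 CPM (165–248), and at day 7, 292 CPM (225–373). Thinned to 500 UMIs, 2.09% of sham astrocytes had a Stat3 UMI, and 10.0% (9.17–10.9%), 7.33%, 4.06% and 6.31% at days 1, 3, 7 and 14.

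A gene was called measured when its mean over the libraries compared was at least 10 CPM, and higher or lower when it differed by at least 2-fold. In day 1 astrocytes 7 members were measured, of which 5 were higher (Lif, Il11, Il6ra, Osmr and Stat3) and 0 lower, beside 12.8% of all measured genes higher and 13% lower. Il6ra is in that count at its main value only, since no direction is drawn for it. At day 3 the count was 2 higher and 0 lower of 5, beside 10.1% and 15%; at day 7 it was 2 and 0 of 5, beside 4.69% and 9.67%. At day 14 it was 3 and 1 of 5, beside 19.6% and 9.35%, from only 317 astrocytes. A gene at or under 6.67 CPM in one group reaches the minimum only when the other group is at least 2-fold higher, so its call is fixed by the minimum and is not support. In astrocytes that held for Osmr at each time and for Lif and Il11 at day 1, and in microglia/macrophages for Lif at day 1 and, as lower, for Il6 at days 3, 7 and 14. Of the remaining astrocyte members 2 of 4 were higher at day 1 (Il6ra and Stat3), 1 of 4 at days 3 and 7 (Stat3) and 2 of 4 at day 14 (Il6ra and Stat3).

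In microglia/macrophages 3 of 7 measured members were higher at day 1 (Osm, Lif and Stat3) and 1 was lower (Il6ra), beside 7.97% of genes higher and 10.3% lower. At day 3 the count was 1 higher (Osm) and 3 lower (Il6, Il6st and Il6ra) of 6, beside 9.96% and 23.9%. At day 7 it was 0 higher and 2 lower (Il6 and Lifr) of 6, beside 4.87% and 15%, and at day 14 0 higher and 3 lower (Il6, Il6ra and Lifr) of 6, beside 6.42% and 26.4%. With TMM scaling the counts were 4 higher and 1 lower at day 1, 2 and 1 at day 3, 0 and 1 at day 7 and 0 and 1 at day 14. The median log2 ratio of all measured genes was -0.06, -0.34, -0.37 and -0.55 at days 1, 3, 7 and 14 in microglia/macrophages and -0.05, -0.12, -0.12 and 0.18 in astrocytes. Relative to that median, Il6ra in microglia/macrophages stood at -1.59, -0.77, -0.48 and -1.08. The 4 injured libraries share the sham library, so these ratios are not independent.

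Among the other gp130 cytokines, Clcf1, which encodes a partner ligand for the CNTF receptor, was also highest in astrocytes of day 1. It stood at 125 CPM at day 1 and 67.0 CPM at day 3, against 3.66 CPM in sham, log2 ratios of 5.09 and 4.19. Its calls at days 1 and 3 are fixed by the minimum, as its sham level was under 6.67 CPM. It was the 1 measured of 7 listed at those times, and 0 were measured at day 7. In microglia/macrophages Clcf1 was lower at all 4 times, with 18.4, 13.8, 12.2 and 5.13 CPM at days 1, 3, 7 and 14, against 43.8 CPM in sham. The microglia/macrophage values of Clcf1 were under 50 CPM and were picked out after their values were seen. The lower call at day 14 is also fixed by the minimum. Of the other receptor chains 2 of 5 were measured in astrocytes. Il11ra1, the IL-11 receptor, had 37.4, 39.2, 56.9 and 62.9 CPM at days 1, 3, 7 and 14, against 61.2 CPM in sham, and differed by less than 2-fold. Cntfr, the anchored CNTF receptor, was lower in astrocytes of all 4 injured libraries, with 125, 64.2, 148 and 85.2 CPM, against 358 CPM in sham. Its log2 ratios were -1.52, -2.48, -1.28 and -2.07.

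Of the JAK kinases and other STATs, 0 of 5 measured differed by 2-fold in day 1 astrocytes, beside 12.8% of all measured genes higher and 13% lower. In microglia/macrophages 5 of 9 were lower at day 3, beside 23.9% of all measured genes, but 2 of 9 were lower with TMM scaling. Among the 5 was Stat6 with 30.9 CPM, against 77.1 CPM in sham. Of the measured negative regulators 4 of 8 were higher in astrocytes at day 1, 1 of 6 at day 3, 2 of 8 at day 7 and 4 of 8 at day 14. The shares of all measured genes were 12.8%, 10.1%, 4.69% and 19.6%. With TMM scaling the day 14 count was 2 of 8. The minimum fixed 2 of the 4 calls at day 1, 1 of the 2 at day 7 and 1 of the 4 at day 14. In microglia/macrophages 0 of 9 were higher at any time, and 1, 4, 2 and 3 were lower at days 1, 3, 7 and 14, beside 10.3%, 23.9%, 15% and 26.4% of all measured genes. With TMM scaling 1, 2, 1 and 0 were lower. The minimum fixed 1 of the 4 lower calls at day 3. Socs3, the feedback inhibitor of gp130 signalling, had 331 CPM in day 1 astrocytes, against 17.4 CPM in sham, and Socs1 had 50.9 CPM, against 5.18 CPM in sham. In microglia/macrophages Socs3 had 151 CPM at day 7 and 149 CPM at day 14, against 430 CPM in sham, log2 ratios of -1.51 and -1.53, of which the day 14 value was -0.82 with TMM scaling.

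Of 32 listed STAT3 target genes 31 were in the files, and in astrocytes most of those measured were higher. At day 1, 22 of 25 were higher and 0 lower, beside 12.8% and 13% of all measured genes. Their median log2 ratio was 3.99, against -0.05 over all genes, where genes with no sham UMI stand at their lower bound. The minimum fixed the call of 8 of those 22, Lcn2 and Tnfrsf12a among them, and of the remaining 17 targets 14 were higher, with a median of 2.71. At day 3 the count was 19 of 23 (median 3.51), at day 7 10 of 19 (1.38) and at day 14 19 of 24 (3.24), with 0 lower at each of these times. Without the targets whose call the minimum fixed, 13 of 17 were higher at day 3 (median 2.26), 8 of 17 at day 7 (0.96) and 12 of 17 at day 14 (1.32), beside 10.1%, 4.69% and 19.6% of all measured genes. The shares over all measured genes were not freed of calls fixed by the minimum, so the gene sets differ in that respect. Lcn2, a secreted iron-siderophore binder, had 959 CPM at day 1 and no UMI in sham astrocytes, at least 1049-fold higher over a floor of 3 UMIs. Serpina3n, a protease inhibitor of reactive astrocytes, had 1157 CPM at day 1, against 9.45 CPM in sham, and Tnfrsf12a, the TWEAK receptor, had 499 CPM, against 3.66 CPM. Vim, which encodes vimentin, had 3205 CPM at day 3 and 4156 CPM at day 14, against 30.5 CPM in sham. Gfap and Lcn2 are also markers in the class lists, and many listed targets respond to other pathways.

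In microglia/macrophages the listed targets were divided. At day 1, 12 of 23 were higher and 0 lower with a median of 1.40, beside 7.97% and 10.3% of all measured genes. At day 3 10 of 25 were higher and 2 lower with a median of 0.74, beside 9.96% and 23.9%. At day 7 5 of 20 were higher and 5 lower, beside 4.87% and 15% of all measured genes, and TMM scaling gave 6 and 2 and turned the median of -0.05 to 0.35. At day 14 8 of 22 were higher and 7 lower, beside 6.42% and 26.4%, where TMM scaling left 2 lower and turned the median of -0.40 to 0.31. The minimum fixed the higher call of 4, 6, 1 and 3 targets at days 1, 3, 7 and 14. Of the remaining 19 targets at each time 8, 4, 4 and 5 were higher and 0, 2, 5 and 7 lower. The medians of those 19 were 0.89, 0.32, -0.05 and -0.60. Pim1, a serine/threonine kinase, had 137 CPM at day 1, against 32.8 CPM in sham, and Il4ra, the IL-4 receptor chain, had 283 CPM, against 70.9 CPM in sham. Gfap, at 86.8 CPM, against 6.99 CPM in sham, was 4.48% of its day 1 astrocyte level. The astrocyte marker range was 2.43–6.04%, but Gfap is itself among the 18 markers that set it and so lies inside by construction. Lcn2 (3.81%), Serpina3n (3.80%) and Cd44 (5.37%) also lay inside it, beside a marker median of 3.71%. With Gfap, 4 of the 12 higher targets at day 1 lay at or under the marker range. At days 3, 7 and 14 these were 2 of 10, 1 of 5 and 2 of 8, with Gfap among them each time. How much of the level of these targets is background was not tested. Saa3, an acute phase protein gene, had 310 CPM at day 14, against 1.88 CPM in sham, and Myc had 10.8 CPM, against 55.3 CPM in sham. Monocyte/macrophage markers summed to 12304 CPM in microglia/macrophages at day 14, against 626 CPM in sham, and their part in these counts was not tested.

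**Figure D5:**
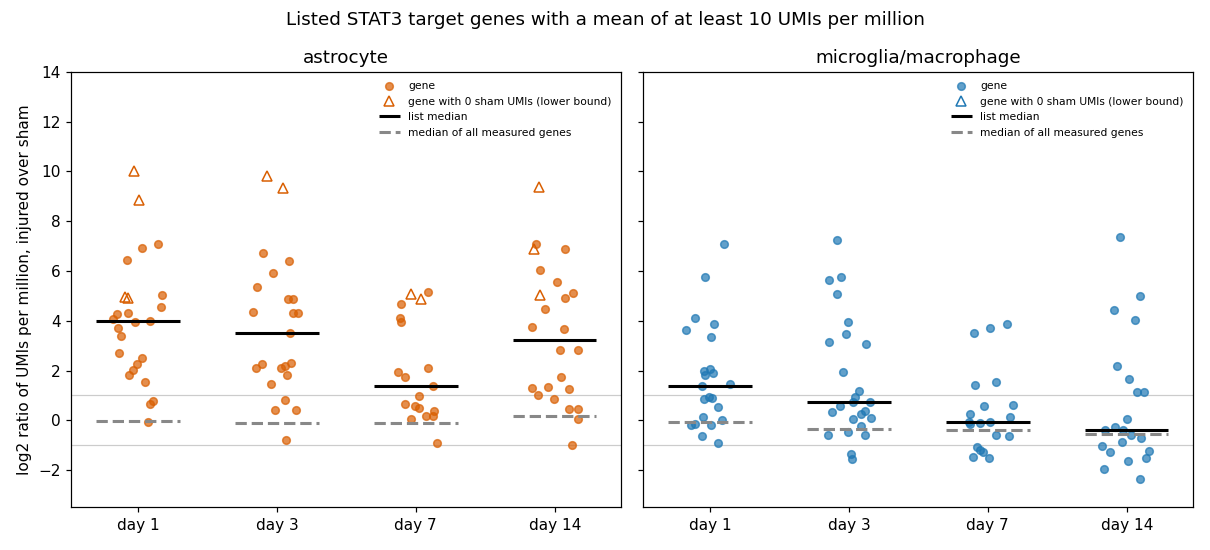
Log2 ratio over sham of the listed STAT3 target genes with a mean of at least 10 CPM, in astrocytes and microglia/macrophages at days 1, 3, 7 and 14 after TBI. Each point is 1 gene, open triangles are lower bounds for genes with no sham UMI, solid lines are the list's medians and dashed lines the medians of all measured genes. The astrocyte list median is 3.99 at day 1 and 1.38 at day 7.

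Across 46 class-by-library sums, the genes most like each member were named as a description; the sums share libraries and classes, so no p is given. Osm was most like Cebpb (Pearson r = 0.943), Ccrl2 and Cd300lf, and Il6ra was most like Lyn (0.928), Zfp36 and Hlx. Osmr was most like Tm4sf1 (0.912), Wwtr1 and S1pr3. Lif was most like Bdnf (0.837), Las1l and Ptx3, and Il11 was most like Sphk1 (0.747), Angptl4 and Ccn2. Stat3 was most like Sbno2 (0.833), Cebpd and Bcl3. Il6st and Lifr reached 0.758 with Tm9sf2 and 0.752 with Vps13d. Among the members themselves the highest values were 0.765 for Osm with Il6ra, 0.685 for Lif with Il11 and 0.563 for Il6st with Lifr. Il6 and Cntf did not reach 50 CPM in any of these sums and were left out.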

How the data were processed

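Cells from 1 sham library and 4 injured libraries were profiled with 10x 3′ chemistry. The deposited matrices hold raw UMI counts per gene and barcode, written by Cell Ranger 4.0.0 per the file headers; STAR 2.5.37, Seurat 3.2.0 and the build GRCm38 are named in the submitters' processing notes. The labels state 5188 to 11934 cells loaded per sample, beside 9895 to 14159 barcodes in the files. From the deposited counts, barcodes with at least 500 UMIs, 200 genes and at most 20% mitochondrial UMIs were kept, and doublets called by Scrublet (3.16% to 8.52% of barcodes) were removed. The mitochondrial limit took 12.7% of day 7 barcodes and under 1% of the others. Cells were clustered with scanpy 1.11.5 (2000 variable genes, 30 principal components, 15 neighbours, Leiden resolution 1).

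Clusters were named from lists of 276 markers in 18 classes, at least 3 of which had to be 2-fold higher and in 10% of cells. A second step set clusters left unnamed against cells outside the named classes, and those still unnamed were split at resolution 0.5. These steps were settled after seeing the data. The 10 genes and all lists were chosen with earlier results of these data known.

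UMIs were summed per class and library and divided by the class total (CPM). Intervals are exact Poisson for levels, exact conditional binomial for ratios and Clopper-Pearson for shares. A gene at 0 in sham was set against 3 UMIs. TMM scaling used edgeR 4.0.16 on the deposited counts, with no model fit. The interval and ratio steps were tested on simulated data. Listed genes are named where they reach 50 CPM in a library and differ by 2-fold, at most 4 per list and comparison. Genes most like a member were ranked by Pearson r of log2(CPM + 10). Alternatives changed the UMI minimum, doublet removal, the mitochondrial limit, clustering, naming and scaling. Counts without genes whose call the CPM minimum fixes were added after seeing the data. Results for some of the listed genes are not reported here.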

Additional observations from a re-analysis of the deposited data

Results flagged for a closer look

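The measured ratios of Il6ra over sham had a negative sign in microglia/macrophages and a positive sign in astrocytes and endothelial cells; the differences between classes were not tested, and no direction is drawn for astrocytes or endothelial cells. In microglia/macrophages its log2 ratios over sham were -1.65, -1.11, -0.85 and -1.63 at days 1, 3, 7 and 14. In astrocytes they were 1.10, 0.33, 0.082 and 1.11 at the same times. In endothelial cells they were 0.44, 0.96, 0.54 and 0.43, against 4 sham UMIs, and all 4 intervals included 0. The astrocyte ratios at days 3 and 7 had intervals that included 0 (-0.18 to 0.88 and -0.41 to 0.61), and those at days 1 and 14 turned negative in some alternatives.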

How the results depend on the processing

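Of the log2 ratios recomputed under alternatives, 895 stayed inside their counting interval, 123 moved outside it and 14 reversed. A change of sign was called a reversal only where the main interval left out 0, so ratios near 0 could change sign uncounted. Osm in microglia/macrophages at day 14, for example, was below sham in its main ratio and 0.56 above it with TMM scaling. Of the 14, 11 were astrocyte ratios, and 7 had differed by at least 2-fold (Il6ra at days 1 and 14 and Il6 at day 1). With at least 1000 UMIs per cell, Il6ra in astrocytes was -0.083 at day 1 and -0.64 at day 14; with called doublets kept it was -0.065 and -0.80. In cells with 5 to 19 dissociation-linked UMIs per 500, astrocyte ratios were -0.80 for Il6 and -2.27 for Il6ra at day 1. There they were 0.19 for Il6st and 0.23 for Lifr at day 3, and Il6st in microglia/macrophages at day 7 was 0.017. Few astrocytes fell in that range: 127 of 4262 in sham, 635 of 4654 at day 1 and 58 of 2210 at day 3. With each cluster named against every other cell, astrocyte Il6ra and Lifr at day 1 were -0.15 and 0.17, and at Leiden resolution 2 astrocyte Lifr at day 3 was 0.0054. With TMM scaling, microglia/macrophage ratios were 0.18 for Il6st at day 7 and 0.16 for Stat3 at day 14.

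The day 1 astrocyte ratios of Lif, Il11, Osmr and Stat3 stayed positive but were lower with each cluster set against every other cell for naming, at 5.14, 4.45, 3.55 and 1.86, because that naming leaves out the F3-led cluster of 3286 cells. Astrocytes then held 1.79% of Lif, 1.89% of Il11 and 4.51% of Osmr UMIs at day 1. With at least 1000 UMIs per cell the day 1 ratios were 4.25 for Il11, 4.68 for Osmr and 2.21 for Stat3, and microglia/macrophages held 94.6% of Osm. With doublets kept, the day 1 shares were 86.4% of Lif and 88.6% of Osmr in astrocytes and 83.4% of Osm and 63.3% of Il6ra in microglia/macrophages. At resolution 2 astrocytes held 90.9% of Osmr, and in cells matched for dissociation genes Osm in microglia/macrophages had a ratio of 2.31 at day 1. The cause was not tested beyond what these settings remove. Leaving the members and listed genes out of the clustering moved 4 of 122 ratios and reversed 0. No paired analysis was possible because each group has 1 library, and no replicate could be left out. Sham depth, at a median of 773 UMIs, limits every ratio: Lif and Il11 rest there on 3 and 1 astrocyte UMIs.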
